A study of Rattus norvegicus with 6 samples.

Results

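The ribbon synapse genes described here were Otof, Slc17a8, Cacna1d, Cacnb2, Cabp2, Ctbp2, Bsn, Pclo and Rims2, which encode proteins for glutamate release from hair cells (HCs). They were found by gene symbol in a table of gene counts from rat vestibular epithelium, where 9 of 32883 listed genes matched, with 1 row for each symbol. RNA was sequenced from 3 Long-Evans rats that received the antibiotic streptomycin (STREP) and from 3 that received the vehicle, PBS (Control). Streptomycin was injected under the skin at 500 mg/kg once daily for 6 weeks, beginning on postnatal day 21. There were 2 males and 1 female in either group, and the 2 utricles and 6 cristae of an animal made up 1 sample. The labels place all libraries in the same batch, and the comparison asks which transcripts differ after this ototoxic exposure.

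HCs signal to the vestibular nerve through ribbon synapses, at which a dense body, the ribbon, holds vesicles close to calcium channels. Bending of the hair bundle depolarises the cell, L-type calcium channels open, and calcium triggers the fusion of glutamate-filled vesicles. The genes encode the channel and its partners (Cacna1d, Cacnb2, Cabp2), the calcium sensor (Otof), the glutamate transporter of the vesicle (Slc17a8), and the ribbon with its scaffold (Ctbp2, Bsn, Pclo, Rims2).

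All 9 genes had enough counts to be tested. In STREP animals, Cabp2 fell by 46.0% and Cacna1d fell by 42.5%, and both act at the calcium entry step. These 2 of 9 were the called genes, and 0 rose. At an unadjusted DESeq2 p-value under 0.05, 3 of the 9 were lower, the third being Slc17a8, and 0 higher, against 5.56% and 6.65% of all genes. With edgeR, at an adjusted p-value under 0.05 and a fold change over 1.5, 2 were called lower without a count filter, 1 with it, and 0 higher. Otof and Slc17a8 did not pass the test, and their 95% intervals stayed within a 1.5-fold decrease. Cacnb2 and the ribbon and scaffold genes did not pass the test either. A gene was called when DESeq2 gave a Benjamini-Hochberg adjusted p-value under 0.05 and a fold change over 1.5 in either direction. Across the 16250 genes tested, 527 were called, which is 3.24%, and 223 were called lower, which is 1.37%. The median log2 fold change of the 9 genes was -0.17, with 7 negative and 2 positive values, against 0.0069 over all tested genes.

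Promoter sequences are shown for 3 genes, the pair that fell and Otof, whose product senses the same calcium but whose transcript was not called. Each runs from 250 bases before to 50 bases after the annotated start, 5′ to 3′ on the strand of the gene, as given by RefSeq for the build GRCr8. Capitals mark E-boxes, CANNTG, the motif bound by basic helix-loop-helix factors, which reads alike on both strands. The Otof promoter, at chr6:31647664-31647963 on the plus strand, held 3 E-boxes and 58.0% G or C bases. The first of the Cabp2 starts listed, at chr1:210803861-210804160 on the plus strand, had 2 E-boxes and 50.7% G or C. The Cacna1d promoter, at chr16:5527500-5527799 on the minus strand, contained 0 E-boxes, 88.7% G or C and 66 CpG dinucleotides.
Otof: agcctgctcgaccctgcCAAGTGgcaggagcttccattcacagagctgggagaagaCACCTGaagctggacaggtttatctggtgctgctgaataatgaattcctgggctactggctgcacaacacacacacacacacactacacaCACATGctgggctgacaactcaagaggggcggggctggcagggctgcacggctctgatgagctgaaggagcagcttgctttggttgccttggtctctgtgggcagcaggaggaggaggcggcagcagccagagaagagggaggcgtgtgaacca
Cabp2: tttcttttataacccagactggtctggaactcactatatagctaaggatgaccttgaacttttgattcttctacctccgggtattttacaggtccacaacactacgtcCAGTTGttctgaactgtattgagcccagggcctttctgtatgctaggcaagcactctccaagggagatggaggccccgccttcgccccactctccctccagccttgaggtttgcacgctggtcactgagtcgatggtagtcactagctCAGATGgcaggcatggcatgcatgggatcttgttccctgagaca
Cacna1d: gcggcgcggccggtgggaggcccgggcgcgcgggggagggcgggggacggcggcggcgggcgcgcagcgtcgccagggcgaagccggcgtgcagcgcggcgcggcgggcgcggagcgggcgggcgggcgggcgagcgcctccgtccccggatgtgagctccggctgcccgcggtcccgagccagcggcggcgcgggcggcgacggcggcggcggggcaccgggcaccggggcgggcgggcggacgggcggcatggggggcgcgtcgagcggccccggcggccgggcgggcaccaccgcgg
In the 33469 promoters of this length, 72.1% held at least 1 E-box, 38.6% held at least 2 and 16.6% held at least 3. The medians were 51.7% G or C and 7 CpG dinucleotides. The promoters shown for Cacna1d and Cabp2 differed widely in base composition. Of the promoters not shown, those of Slc17a8 and Pclo held 2 E-boxes each, those of Ctbp2 and Bsn 1 each, and both of Cacnb2 held 0. A link between motif count and change was not tested. A second Cabp2 start, with 59.3% G or C, held 0 E-boxes. The motif count describes these letters alone.

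Library totals were 48568191 to 59906048 counts in Control and 29333584 to 33744909 in STREP animals, so depth separated the groups. A floor of 3 counts corresponded to 0.0501 to 0.102 CPM, counts per library scaled to a common total, which covers counting error only. All 12 HC markers, among them Myo7a, Pou4f3 and Tmc1, had counts in every library. Their summed normalised count, meaning counts divided by a DESeq2 size factor, was 112853 to 121654 in Control and 102689 to 156603 in STREP animals. Ush1c was the largest part of that sum, with 54752 to 65375 in Control and 53740 to 101030 in STREP animals. The mean log2 over the 12, with each gene weighted alike, was 11.6 to 11.7 in Control and 11.5 to 11.7 in STREP animals. Of the 12 HC markers, 7 had negative and 5 positive log2 fold changes. At a DESeq2 adjusted p-value under 0.05, 3 were lower and 1 higher. The called ones were Loxhd1 and Gfi1. Loxhd1, a stereocilia gene, fell from 2923 ± 179 to 1263 ± 131 normalised counts (SD, n = 3). Gfi1, an HC transcription factor, rose from 1525 ± 408 to 3505 ± 447 (SD, n = 3). The other lower ones, Lhfpl5 (-0.45) and Myo7a (-0.49), were under the 1.5-fold limit. The sum of 5 Schwann cell markers was 223607 to 304164 in Control and 121445 to 249393 in STREP animals. Of these, 4 had negative and 1 a positive log2 fold change, and the called ones were Prx, which fell, and Sox10, which rose. The sum of 8 supporting cell markers was 475713 to 598836 in Control and 555950 to 970818 in STREP animals. Most of it was Otog, with 334983 to 410468 in Control and 425664 to 729507 in STREP animals. The mean log2 of the 8 was 13.6 to 13.9 in Control and 13.8 to 14.2 in STREP animals. Of the 8, 2 had negative and 6 positive log2 fold changes, and 0 were called. In bulk tissue, fewer HCs and less RNA in each HC cannot be told apart.

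Cacna1d (ENSRNOG00000013147) encodes CaV1.3, the pore of the L-type channel that opens at the HC ribbon. The Control animals, in the order of replicates 1, 2 and 3, had 4529, 4715 and 4229 normalised counts, and the STREP animals, in the same order, had 2223, 3362 and 2154. All STREP values lay below all Control values, although STREP replicate 2 stood apart from the others and closer to the Control animals. Mean values of 4491 ± 245 and 2580 ± 678 (SD, n = 3) gave a log2 fold change of -0.80 ± 0.19 (SE, 95% interval -1.17 to -0.43, DESeq2 adjusted p = 0.00155).

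Cabp2 (ENSRNOG00000018339) encodes a calcium-binding protein that restrains the inactivation of the same channel. The Control animals had 11511, 13760 and 12542 normalised counts, and the STREP animals 5364, 5973 and 9077. The groups did not overlap, and the STREP female, replicate 3, had the highest value of its group. From 12604 ± 1125 in Control animals the mean went to 6805 ± 1991 in STREP animals (SD, n = 3). On the log2 scale this was -0.89 ± 0.20 (SE, 95% interval -1.28 to -0.50; DESeq2 adjusted p = 0.000495).

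After thinning of all libraries to the lowest total count, both calls held, with log2 fold changes of -0.79 for Cacna1d and -0.89 for Cabp2. Each call was lost under 1 of 15 other settings, and both were lost when the 1.5-fold threshold was placed inside the DESeq2 test. With library totals as size factors, the adjusted p-value of Cacna1d in DESeq2 was 0.135, and over its 15 alternatives it ran from 3.02e-11 to 0.135. With edgeR after a count filter, that of Cabp2 was 0.0501, at the top of a range from 5.51e-15 to 0.0501.

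Cacnb2 (ENSRNOG00000018378) encodes an auxiliary beta subunit that helps to place the channel in the membrane. It had 24 to 126 counts in each library. Normalised counts were 77.3, 48.5 and 20.6 in Control and 41.3, 32.4 and 50.9 in STREP animals, with overlapping groups and a wide spread among Control animals. The fold change was -0.24 ± 0.63 on the log2 scale (SE, 95% interval -1.49 to 1.00; DESeq2 adjusted p = 0.969), an interval that held a 1.5-fold change in either direction.

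Otof (ENSRNOG00000009967) encodes otoferlin, a ferlin with several calcium-binding domains that is required for exocytosis in HCs. Normalised counts were 29590, 28718 and 28373 in Control animals, close to one another. STREP replicates 1, 2 and 3 had 24813, 22945 and 29056, so replicate 3 lay within the Control range and the others beneath it. Averages were 28893 ± 628 in Control and 25605 ± 3132 in STREP (SD, n = 3). Otof was not called, with a log2 fold change of -0.17 ± 0.13 (SE, 95% interval -0.43 to 0.083; DESeq2 adjusted p = 0.701). With 18637 to 48216 counts in each library, its SE was smaller than that of every other gene of the 9 but Slc17a8.

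Slc17a8 (ENSRNOG00000007581) encodes VGLUT3, which fills HC synaptic vesicles with glutamate. The values were 3533, 3205 and 3311 normalised counts in Control and 2797, 2600 and 2763 in STREP animals. Every STREP animal was below every Control animal, with means of 3350 ± 167 and 2720 ± 105 (SD, n = 3). The log2 fold change of -0.30 ± 0.13 (SE, 95% interval -0.55 to -0.054) did not pass the test across all genes (DESeq2 adjusted p = 0.225). Over 15 alternatives its fold change ran from -0.33 to -0.26, and it was called in 0.

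Ctbp2 (ENSRNOG00000017326) gives rise to RIBEYE, the main protein of the ribbon, and from another start to the transcriptional co-repressor CtBP2, and counts for the whole gene do not separate these products. Control animals had 1018, 1340 and 1377 normalised counts and STREP animals 1168, 1409 and 1092. The groups were intermixed, with a log2 fold change of -0.024 ± 0.19 (SE, 95% interval -0.40 to 0.35; DESeq2 adjusted p = 0.990). The interval held no 1.5-fold change in either direction.

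Bsn (ENSRNOG00000030714) and Pclo (ENSRNOG00000005726) encode bassoon and piccolo, large scaffold proteins, the first of which anchors the ribbon to the membrane. Bsn had 206, 219 and 250 normalised counts in Control and 154, 180 and 293 in STREP animals, the STREP group holding both the lowest and the highest value. Its log2 fold change was -0.11 ± 0.32 (SE, 95% interval -0.73 to 0.52; DESeq2 adjusted p = 0.973). Pclo had 183, 225 and 270.0 in Control and 282, 277 and 251 in STREP animals, with overlap through STREP replicate 3. The log2 fold change of Pclo was 0.26 ± 0.27 (SE, 95% interval -0.26 to 0.78; DESeq2 adjusted p = 0.824).

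Rims2 (ENSRNOG00000004201) encodes an active zone protein that tethers calcium channels near the release site. Control animals had 204, 194 and 168 normalised counts and STREP animals 209, 232 and 220. All STREP values were above all Control values, by a small margin, with means of 188 ± 18.6 and 220 ± 11.6 (SD, n = 3). The change was not called (log2 fold change 0.23 ± 0.26, SE; 95% interval -0.29 to 0.74; DESeq2 adjusted p = 0.860). Neurons also express Bsn, Pclo and Rims2. The summed normalised count of 9 neuronal markers was 3837 to 4449 in Control and 3547 to 3814 in STREP animals. Nefl and Nefm made up most of that sum. The mean log2 over the 9, with each gene weighted alike, overlapped, at 6.54 to 7.19 in Control and 6.32 to 7.22 in STREP animals. Of these 9 markers, 6 had negative and 3 positive log2 fold changes, with a median of -0.23. The called gene of that list, Tubb3, went against most of it and rose (124 ± 54.0 to 302 ± 70.7, SD, n = 3). Nefh and Stmn2 were at 0 in some libraries. The part of neurites in the values of these scaffold genes was not tested.

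**Figure D1:**
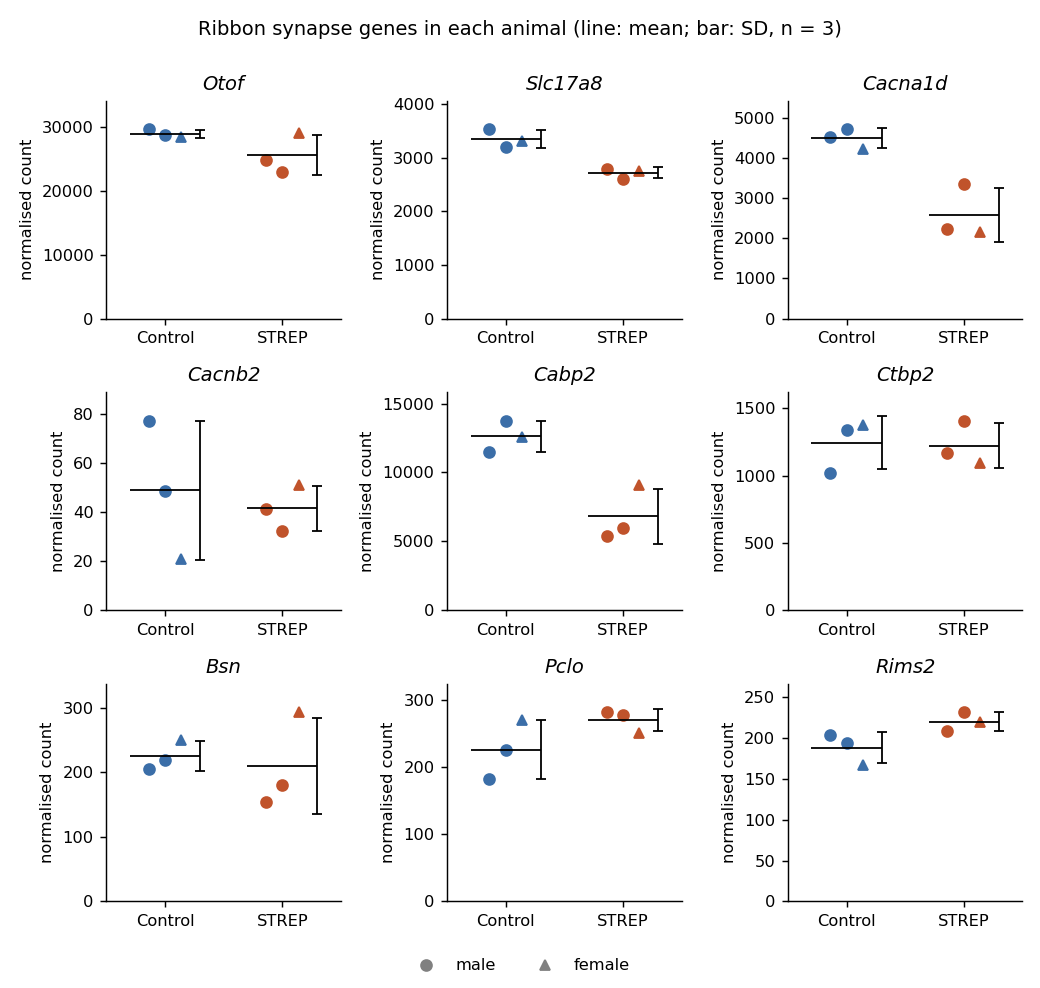
Normalised counts (vertical axes, each starting at 0) of the 9 genes in Control and STREP animals, with circles for males, triangles for females, lines for means and bars for SD (n = 3). Cacna1d, Cabp2 and Slc17a8 show 3 STREP points below all Control points, and Rims2 shows the reverse order.

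**Figure D2:**
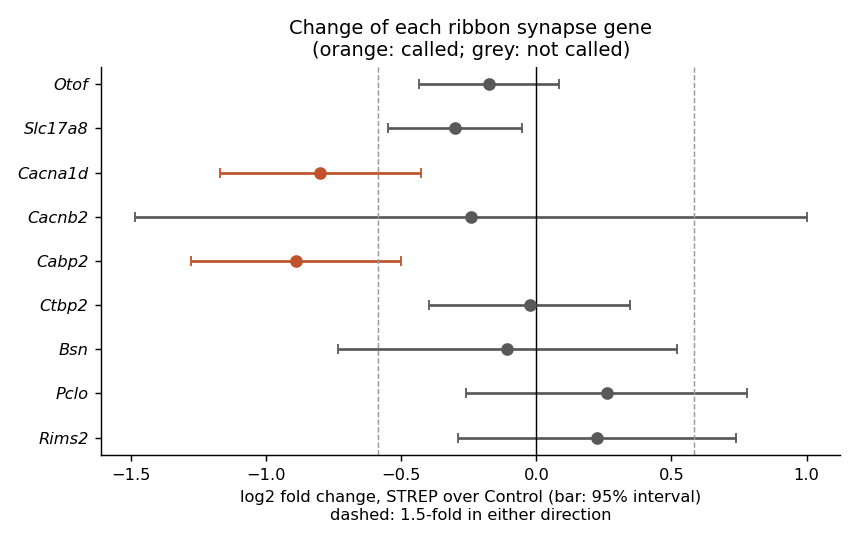
The log2 fold change of each gene, STREP over Control (horizontal axis), with its 95% interval from DESeq2 and dashed lines at 1.5-fold. The called genes, Cacna1d and Cabp2, are orange at -0.80 and -0.89, and the interval of Cacnb2 is the widest.

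Groups without overlap were seen for 4 of the 9 genes, with STREP lower for 3 (Cacna1d, Cabp2, Slc17a8) and higher for 1 (Rims2). Over all tested genes, 8.63% had every STREP value below every Control value and 9.12% had the reverse. The plot of normalised counts by animal shows these 4 genes beside the 5 whose groups overlapped, and the plot of fold changes sets their intervals against the 1.5-fold limits.

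Ratios within a library set these genes against HC marker transcripts of the same tissue, using log2(normalised count + 1). As Bsn, Pclo and Rims2 are also expressed in neurons, and Ctbp2 also yields a co-repressor, their ratios may mix RNA of several cell types. The part of other cells in these ratios was not tested. Relative to the mean of 12 HC markers, Cacna1d was -0.76 and Cabp2 -0.85 in STREP minus Control animals. Slc17a8 was -0.23 and Otof -0.11 on the same scale. Groups did not overlap for the first 3 (exact permutation p = 0.1 each, two-sided, the smallest possible with n = 3) and overlapped for Otof (exact permutation p = 0.4). Rims2 was 0.30 and Pclo 0.34, without and with overlap.

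Otof, whose product acts after the channel, served as another reference, chosen after seeing the data. Because Otof changed little, the ratios of Cacna1d and Cabp2 over it largely restate their falls. The Cacna1d to Otof log2 ratio was -2.71, -2.61 and -2.75 in Control and -3.48, -2.77 and -3.75 in STREP animals. The STREP ratios were all lower, replicate 2 by little, and the difference was -0.65 (exact permutation p = 0.1, n = 3). For Cabp2 the ratio was -1.36, -1.06 and -1.18 in Control and -2.21, -1.94 and -1.68 in STREP animals, a difference of -0.74 with no overlap (exact permutation p = 0.1, n = 3). The Slc17a8 to Otof ratio overlapped between groups, with a difference of -0.12 (exact permutation p = 0.3, n = 3).

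Relative to Myo7a alone, an unconventional myosin of HCs, the differences of Cacna1d and Cabp2 were closer to 0 and their groups overlapped. Cacna1d differed by -0.34 and Cabp2 by -0.43 (exact permutation p = 0.2 for each, n = 3). Genes that were not called had positive differences over Myo7a, with 0.31 for Otof (exact permutation p = 0.3, groups overlapping). Rims2 had 0.72, Pclo 0.76 and Ctbp2 0.47 over Myo7a, without overlap (exact permutation p = 0.1 each, n = 3). The stereocilia and transduction genes among the markers were Tmc1, Cdh23, Pcdh15, Ush1c, Espn, Lhfpl5 and Loxhd1, the last of which was called lower (log2 fold change -1.21). Over their mean, Rims2 had 0.47 and Pclo 0.52, also without overlap, though neither gene was itself called. Myo7a itself averaged 4896 ± 502 in Control and 3481 ± 245 in STREP (SD, n = 3, log2 fold change -0.49, DESeq2 adjusted p = 0.0162), under the 1.5-fold limit. The size of these differences depended on which HC transcript was the reference. The plot of ratios within each library sets Otof and Myo7a side by side as references.

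**Figure D3:**
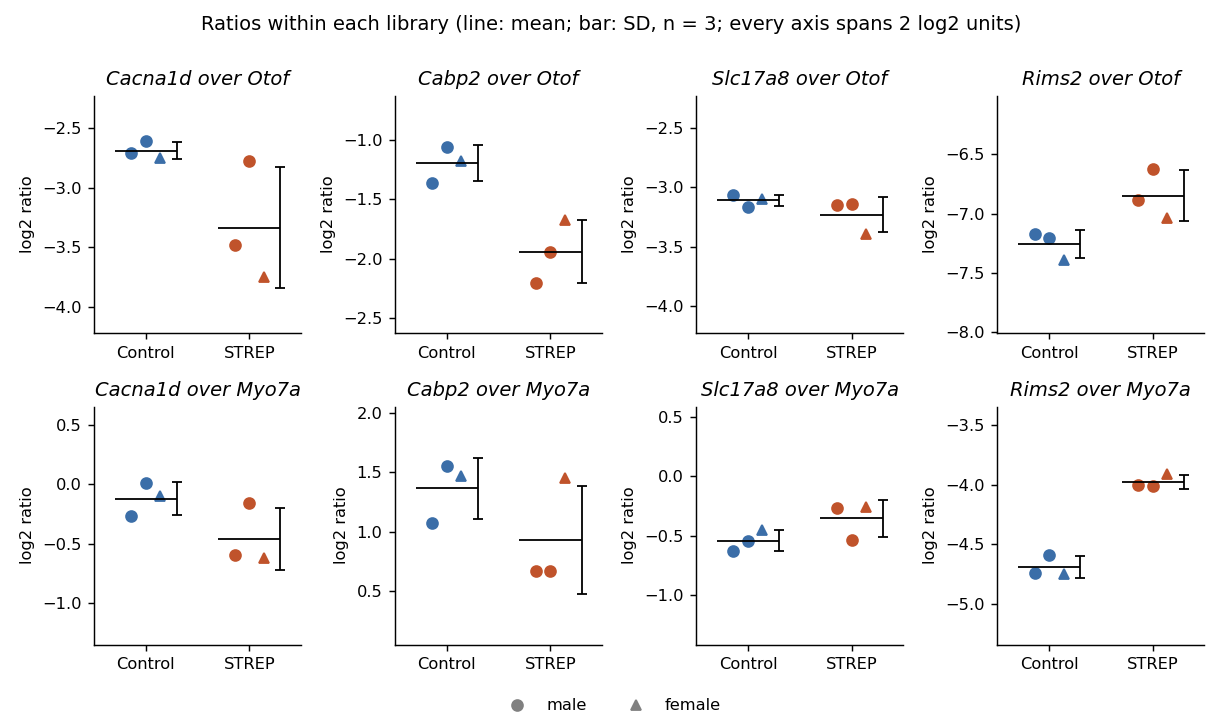
Log2 ratios within each library of Cacna1d, Cabp2, Slc17a8 and Rims2 over Otof (upper row) and over Myo7a (lower row), with points for animals, lines for means and bars for SD (n = 3). Cacna1d and Cabp2 are separated between groups over Otof and overlap over Myo7a, and Rims2 is higher in STREP animals over both.

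A list of 90 further genes of release and its targets gave 88 matches in the table and 82 tested genes. Of the 82, 1 fell, Ppfia4, and 1 rose, Ctbp1, shares close to those over all genes (3.24% called, 1.37% called lower). The median log2 fold change was -0.020. At an unadjusted DESeq2 p-value under 0.05, 10 of the 82 were lower and 8 higher, where 5.56% of all tested genes were lower and 6.65% higher. Of 13 active zone scaffold genes, 3 were lower and 3 higher at that value, Ppfia4 and Ctbp1 included. Of 12 calcium channel genes 0 were called by DESeq2 or edgeR and 1 had an unadjusted DESeq2 p-value under 0.05. It was Cacna1a, which was higher in STREP animals (log2 fold change 1.00 ± 0.46, SE; DESeq2 adjusted p = 0.321). Cacna2d1, the auxiliary subunit with most counts, averaged 4089 ± 1016 in Control and 4569 ± 494 in STREP (SD, n = 3), or 0.16 on the log2 fold change scale. Ppfia4, liprin-alpha 4, a scaffold of active zones, had 860, 1082 and 607 normalised counts in Control and 410.1, 510 and 369 in STREP animals. It was lower in every STREP animal (log2 fold change -0.98 ± 0.25, SE; DESeq2 adjusted p = 0.00528), but its call was lost without Control replicate 1 or 2 or STREP replicate 1 or 3, each in turn. Ctbp1, the paralog of Ctbp2, had 3380, 2271 and 3891 in Control and 6364, 6312 and 6352 in STREP animals. The STREP animals were nearly alike and all above Control (log2 fold change 1.00 ± 0.19, SE; DESeq2 adjusted p = 2.71e-05). Ctbp1 and Ctbp2 are similar genes, and reads shared by both are divided by the quantification. The effect of such reads on either value was not tested.

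The other roles held 0 genes called by DESeq2 or edgeR when all animals were kept. With so few genes in each role, the counts at the unadjusted value are descriptions beside the 5.56% and 6.65% over all genes. Of 13 tested vesicle fusion genes, 2 had an unadjusted DESeq2 p-value under 0.05, both with positive fold changes, and Napa, which helps to disassemble SNARE complexes, had a log2 fold change of -0.12. Of 7 tested ferlins and otoferlin insertion genes, 1 was below that value on the lower side and 1 on the higher side. The latter, Fer1l6, had only 0 to 24 counts in each library. Wrb, a receptor for inserting tail-anchored proteins, had a log2 fold change of 0.028. Among 11 vesicle loading and vesicle protein genes, with 0 below it, Rab3a, a vesicle GTPase, had -0.33. Of the 4 synaptotagmins, 1 was below it in each direction, and Syt2 had -0.54 (DESeq2 adjusted p = 0.177). Of 7 recycling genes, 3 were below it, all with negative fold changes, and Necap1, which acts in endocytosis, had -0.16. Of 6 adhesion genes 0 were below it, and Nrxn3, a neurexin, had -0.14. Of 9 postsynaptic genes 2 were below it, both negative, and Gria4, an AMPA receptor subunit, had 0.034. Those 2, Gria1 and Shank1, had few counts, with 2 to 13 and 13 to 18 in STREP libraries. The alternative vesicular glutamate transporter Slc17a7, named after its values were seen, was at 0 counts in every library, and Slc17a6 had 20.8 ± 9.86 and 17.5 ± 15.3 normalised counts (SD, n = 3).

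**Figure D4:**
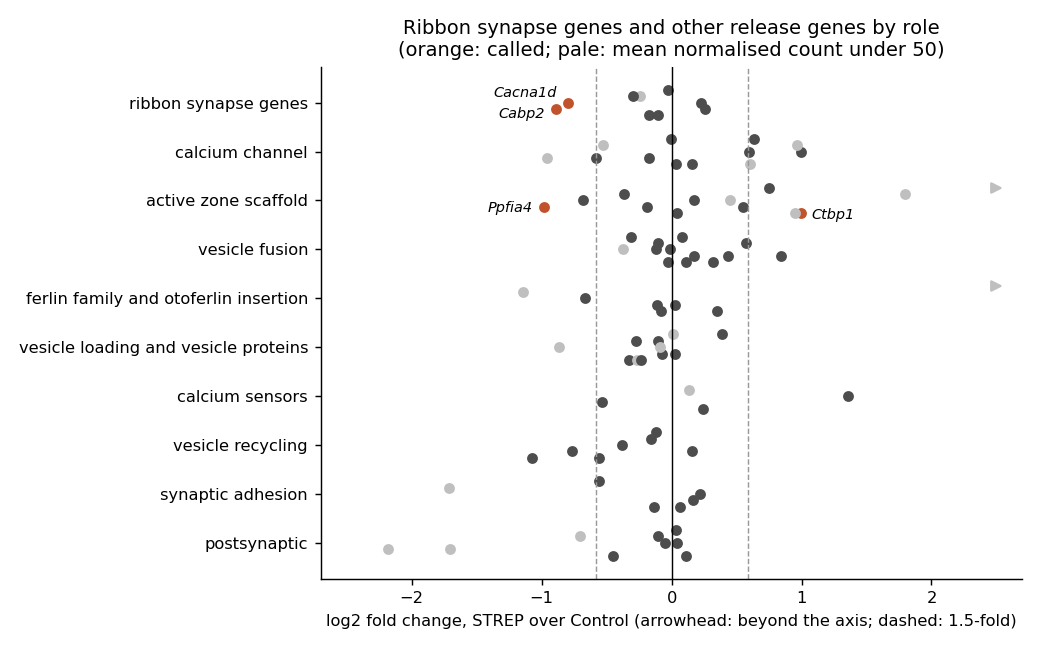
Log2 fold change (horizontal axis) of the 9 ribbon synapse genes and the further release genes by role (rows), with called genes in orange and genes of mean normalised count under 50 pale. Orange marks 2 ribbon synapse genes, Ppfia4 on the lower side and Ctbp1 on the higher side.

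Ctbp1 was called without each animal in turn, but the number of called release genes moved with single libraries. Without Control replicate 1, 4 genes were called (Dysf, Cplx2 and Syt4 joining Ctbp1), and without STREP replicate 2, 5 were called, Stx3, Snap91 and Syt2 joining Ctbp1 and Ppfia4. Without Control replicate 2, STREP replicate 1 or STREP replicate 3, 1 gene was called, Ctbp1.

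Prkar1a, Stk3 and Akt2 had the pattern most like Otof across the 6 libraries, by the root mean square difference of centred log2 values (0.0180, 0.0182 and 0.0264). In the ranking of 12130 genes, those averaging 100 or more normalised counts, Slc17a8 ranked 495, with a difference of 0.106. Cabp2 ranked 9974 (0.411) and Cacna1d 10330 (0.439), far from Otof. As Otof changed little, this measure places genes with small changes near it, and the ranks of Cabp2 and Cacna1d largely restate their falls. Shared regulation was not tested. Ctbp2, Bsn, Pclo and Rims2 lay between, at ranks 4828 to 8305, and Cacnb2 had too few counts to be ranked.

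The fall of Cabp2 was -1.16 on the log2 scale in males alone and -0.47 in the 1 female pair. As each group held 1 female, the error of a difference by sex rests on the spread among males and assumes the same spread in females. The difference for Cabp2, 0.69 ± 0.28 (SE), did not pass adjustment over all genes (DESeq2 adjusted p = 0.666). For Cacna1d the corresponding values were -0.73 in males and -0.97 in females, with a difference of -0.25 ± 0.37 (SE; DESeq2 adjusted p = 0.999).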

How the data were processed

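Per the labels, vestibular epithelium RNA was made into oligo-dT primed, amplified SMARTseq2 libraries, without molecular identifiers or strand, so overlapping genes are not told apart. The authors mapped reads to the rat genome (STAR 2.5.3a per the submitters' processing notes), quantified genes with RSEM 1.3.0 and deposited 1 table of expected counts, all whole numbers. Groups came from the labels. Counts were fitted in R 4.3.3 with DESeq2 1.42.0 over all 32883 genes (median-of-ratios factors, group as factor, Wald test, Benjamini-Hochberg adjustment, 0.05, fold 1.5), after tests on simulated data. Each sample is 1 animal. Alternatives were edgeR 4.0.16 with and without a count filter, TMM and library totals, requiring 10 counts in 3 samples, turning off independent filtering, a sex covariate, males alone, threshold variants, thinning and leaving out each animal. Single values were compared by exact permutation tests, for which 0.1 is the smallest p.

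Genes and lists were chosen with earlier results of these data known. Named genes were the 9 genes, every called gene of the other lists, per role the gene with the highest mean count, and the 3 nearest to Otof. Genes named otherwise were chosen after seeing values. Promoters came from RefSeq (GRCr8), another build than that of the counts, where 8 of 9 genes matched and Rims2 did not.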

Additional observations from a re-analysis of the deposited data

How the results depend on the processing

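Across the settings tried, Cacna1d and Cabp2 were lower in STREP animals in all 15 alternatives each, and Otof, Slc17a8, Pclo and Rims2 kept their direction in every one and were called in 0. The number of the 9 genes called was 1 with edgeR after a count filter, where Cabp2 had -0.89 (adjusted p = 0.0501), 1 with library totals, where Cacna1d had -0.77 (adjusted p = 0.135), and 0 with the fold threshold inside the DESeq2 test. Leaving out 1 animal gave 2 called genes throughout. Of the further release genes, 1 was called with edgeR after a filter, 1 with library totals and 0 with the threshold inside the test, and 1 to 5 when an animal was left out. The number of all called genes was 527 against 264 with edgeR after a filter, 295 without one, 309 with library totals and 82 with the threshold inside the test, of which the cause was not tested.

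Leaving out 1 animal, log2 fold changes ran from -0.27 to -0.10 for Otof, with the lowest without STREP replicate 3 and the highest without STREP replicate 2, and from 0.12 (without Control replicate 1) to 0.41 (without Control replicate 3) for Pclo. They ran from -0.42 to 0.070 for Bsn, -0.15 to 0.055 for Ctbp2 and -0.61 to 0.26 for Cacnb2, which changed sign. Ctbp2 had 0.13 in males alone. The ratio to HC markers changed sign against Myo7a for Otof (0.31), Slc17a8 (0.19) and Bsn (0.33), and against stereocilia and transduction genes for Otof (0.063) and Bsn (0.089). Bsn had 0.026 against Otof, a reference chosen after seeing the data. For Cacnb2 this ratio was -0.010 with a pseudocount of 10 and -0.65 in males alone. Leaving out 1 animal, the ratios ran from -0.20 to 0.0019 for Otof, -0.50 to 0.38 for Cacnb2, -0.13 to 0.15 for Ctbp2 and -0.35 to 0.060 for Bsn. No paired analysis was possible because the sample titles carry no replicate number shared by the groups. The titles of STREP replicates 1 and 2 begin with the same code, whose meaning the labels do not give. Cacnb2 had the widest interval and 24 to 126 counts in each library, and thinning to the smallest total moved its SE from 0.63 to 0.65.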
